A study of Mus musculus with 13 samples.

Results

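Cytochrome P450 families 2 and 3 were followed in liver RNA of WT mice and of mice without Nod2. The members were all protein-coding genes whose symbol begins with Cyp2 and a subfamily letter, or with Cyp3a, which gave 58 genes of the 53465 in the table, in 15 subfamilies, and left out 15 pseudogenes. There were 13 libraries, each from a mouse of its own, 6 WT and 7 Nod2-/-. All mice were BALB/c, had been given the carcinogen DMBA as pups on the skin of the back, and, per the labels, had then been kept on high fat diet for 30 weeks. The labels give cancer as the disease state of every mouse, in both groups, so no group was untreated or free of the diet. The labels do not give the sex of the mice, the study's text names males, and Xist had at most 3 counts and Ddx3y, a Y-linked gene, at least 854 in every mouse. WT and Nod2-/- mice were bred as separate lines and not as littermates, so the deletion of Nod2 and any other difference between the lines cannot be told apart. Whether a piece of liver held tumor is not given for the libraries.

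Cytochrome P450 enzymes are heme proteins of the endoplasmic reticulum that oxidize drugs, carcinogens, steroids and fatty acids, and they receive their electrons from the reductase encoded by Por. Families 2 and 3 hold most of the drug-metabolizing enzymes of the liver, where many of them are made in hepatocytes around the central vein. Their genes lie in clusters of close copies, several of them are expressed in a sex-dependent way under growth hormone, and a number are induced through the nuclear receptors CAR (Nr1i3) and PXR (Nr1i2).

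The clusters matter for the reading of these counts, since the reads were 43 bases long and close copies share stretches of that length. Of the 58 members, 31 shared more than 10% of their distinct 43-base transcript windows with another gene, 5 shared more than 50%, and 13 shared less than 1% (GENCODE M21 transcripts, GRCm38). Cyp3a41a and Cyp3a41b were the closest copies, with 99.2% and 94.2% of their windows shared. The coding sequences of Cyp2a4 and Cyp2a5 differ at 23 of 1482 bases, and those of Cyp2c69 and Cyp2c40 at 31 of 1473 compared bases. The following 43-base stretches of coding exons, read from the transcripts, are shown because the copies of each set differ within them. They were chosen within each set and not against other genes or pseudogenes. Capitals mark the bases that differ within each set.
Cyp2a4 (chr7:26307683-26307725, plus strand): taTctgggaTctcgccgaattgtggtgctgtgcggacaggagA
Cyp2a5 (chr7:26835828-26835870, plus strand): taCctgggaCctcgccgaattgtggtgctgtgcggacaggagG
Cyp2c69 (chr19:39881454-39881496, minus strand): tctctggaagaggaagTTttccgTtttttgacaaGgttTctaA
Cyp2c40 (chr19:39807523-39807565, minus strand): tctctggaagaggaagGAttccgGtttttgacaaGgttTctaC
Cyp2c68 (chr19:39739384-39739426, minus strand): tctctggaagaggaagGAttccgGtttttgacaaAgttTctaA
Cyp2c67 (chr19:39643600-39643642, minus strand): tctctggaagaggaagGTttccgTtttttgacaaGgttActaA
Cyp2c37 (chr19:40000418-40000460, plus strand): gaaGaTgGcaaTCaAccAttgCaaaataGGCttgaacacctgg
Cyp2c50 (chr19:40096717-40096759, plus strand): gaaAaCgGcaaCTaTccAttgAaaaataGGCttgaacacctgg
Cyp2c54 (chr19:40047603-40047645, minus strand): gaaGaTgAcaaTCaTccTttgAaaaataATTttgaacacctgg
The Cyp2a pair differs at 3 bases of its window, the Cyp2c69 set at 6 positions and the Cyp2c37 set at 11. How reads that map to several places were counted is not given in the sources used here, so counts of these copies are uncertain.

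Depth was 14886273 to 20579984 counts in WT and 13824780 to 19391431 in Nod2-/- libraries, and the precision of the lowest members was set by it. Nod2 had 0 to 4 counts in WT and 1 to 6 in Nod2-/- mice, too few to check the genotype. Some libraries stood apart. WT replicate 3 had the highest summed level of liver tumor and progenitor genes among WT mice, at 11470 normalized counts against 839 to 3747 in the other WT mice. Nod2-/- replicates 4 and 7 had the highest neutrophil gene sums, at 17351 and 71539, and the highest acute phase sums, at 540272 and 730101. Lcn2 is on both of these lists, so the sums are not separate. The summed markers of kidney tubule were at most 1.76 normalized counts in any mouse. The skin keratinocyte markers summed to 34.9 to 65.6. Lung epithelium markers summed to 488 to 3986 in WT and 480 to 1320 in Nod2-/- mice. Hopx alone had 239 to 940 in WT and 417 to 875 in Nod2-/- mice, with a log2 fold change of 0.42 ± 0.29 (SE). The Nod2-/- median was 966 for the sum and 745 for Hopx. Of the 7 tested lung markers, 5 were lower in Nod2-/- mice at an unadjusted p under 0.05 (0 past 5% FDR, median log2 fold change -2.15). Albumin was the leading hepatocyte marker, and of the 12 tested hepatocyte markers 0 were lower and 2 higher at an unadjusted p under 0.05 by edgeR. The 2 higher were Hpx (log2 fold change 1.06) and Apoa1 (0.53). In fitted values 8 markers were higher and 4 lower, and 0 passed 5% FDR. Ttr, 1 of the lower (-0.27), had a two-sided exact permutation p of 0.034.

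No member passed the threshold of 5% FDR (false discovery rate) between the genotypes. Of the 58 members, 39 had enough counts to be tested, 29 of these had lower and 10 higher fitted values in Nod2-/- mice, and 0 passed 5% FDR by edgeR. The smallest adjusted p of a member was 0.067, for Cyp2c40. Over all 13545 genes tested, 1.16% passed (0.509% lower and 0.65% higher in Nod2-/-). At an unadjusted p under 0.05, 14 of the 39 members were lower (35.9%) and 4 were higher (10.3%), against 10.2% lower and 12.9% higher over all genes. The median log2 fold change (Nod2-/- over WT) was -0.38 over the tested members and 0.02 over all genes tested, of which 47.7% had lower fitted values. No member had normalized counts without overlap between the groups, against 1.44% of all genes.

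The absence of a call depended on the tool, on the low-count filter (for Cyp2c69) and on single mice, WT replicate 3 and, for Cyp2b10, Nod2-/- replicate 5. DESeq2 placed 8 members lower and 2 higher past 5% FDR, against 4.03% lower and 4.38% higher over the 14370 genes to which it gave an adjusted p. The 8 lower were Cyp2c69, Cyp2c37, Cyp2c40, Cyp2c54, Cyp2a22, Cyp2c50, Cyp2e1 and Cyp2j5, and the 2 higher were Cyp2r1 and Cyp3a57. Without WT replicate 3, edgeR placed Cyp2c37, Cyp2c54, Cyp2c40, Cyp2a22, Cyp2e1 and Cyp2j5 lower and Cyp3a57 higher past 5% FDR, against 3.37% lower and 5.12% higher over all genes. With the replicate number as a block, 0 members were called, against 0.133% lower and 0.126% higher over all genes. With WT replicate 3 and Nod2-/- replicates 4 and 7 left out together, a setting chosen after seeing the data, 0 members were called in either direction.

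**Figure D1:**
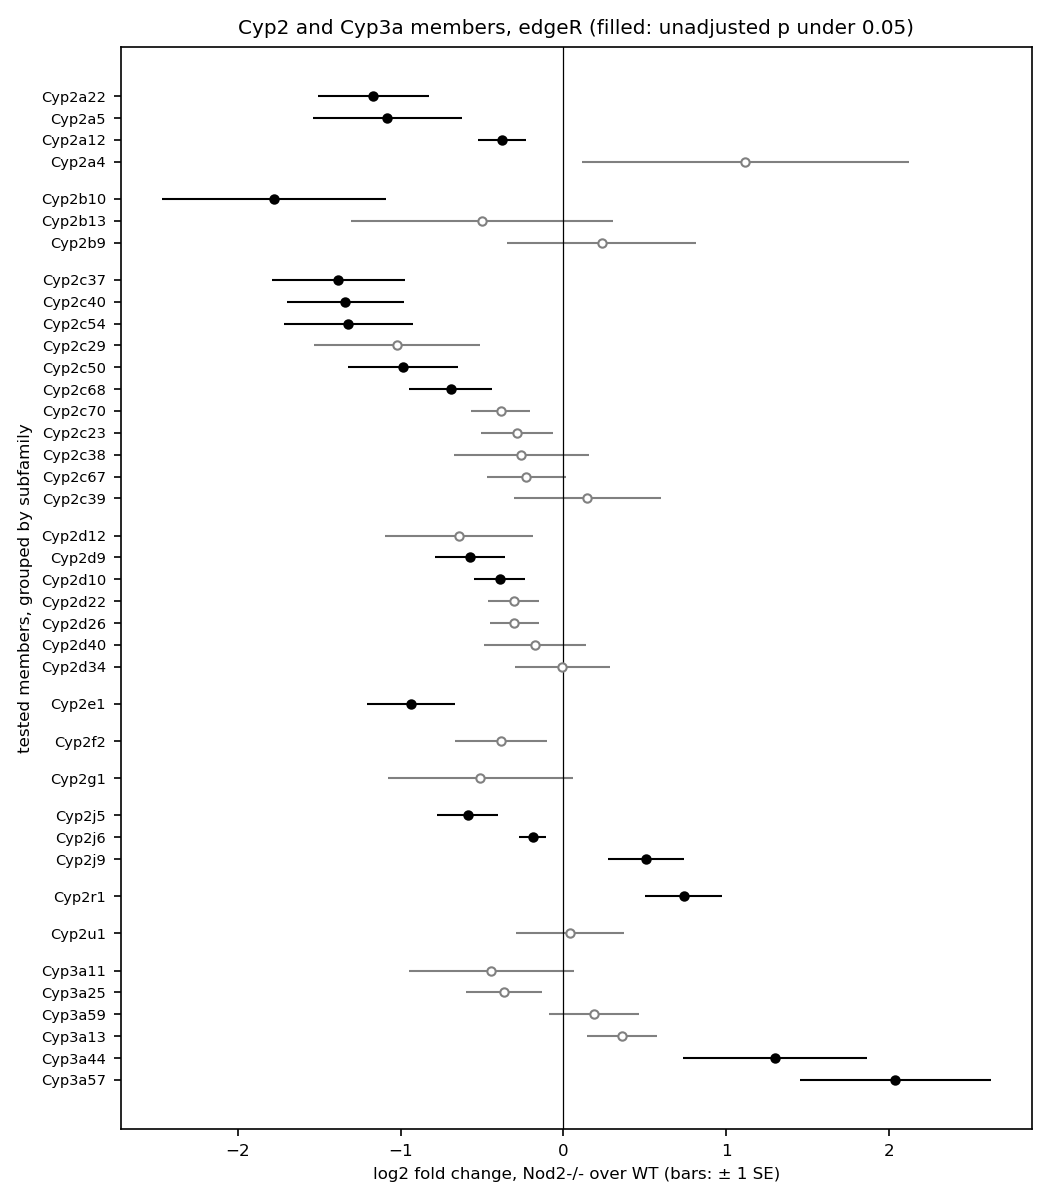
Log2 fold change (Nod2-/- over WT, x axis) of the 39 tested members, grouped by subfamily on the y axis, with bars of 1 SE and filled points for an unadjusted p under 0.05 by edgeR. Of the 39 points, 29 lie below 0, and the widest bars belong to Cyp2a4 and Cyp2b13.

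As a share of all counts in a library, the members took 1.82%, 2.24% and 2.95% in WT mice (lowest, median and highest) and 0.805%, 1.66% and 1.86% in Nod2-/- mice. In 4 of 7 Nod2-/- mice the share was below every WT mouse. Cyp2e1 alone made up 25.4% to 49.5% of the member counts. Without Cyp2e1 the share was 1.33% ± 0.226 (SD, n = 6) in WT and 0.974% ± 0.257 (SD, n = 7) in Nod2-/- mice. In bulk liver, fewer cells of a type and less RNA per cell cannot be told apart. The neutrophil gene sum was 233 to 2244 in WT and 1154 to 71539 in Nod2-/- mice. Within that sum, Lcn2 alone had 144 to 2112 in WT and 982 to 53827 in Nod2-/- mice. The Nod2-/- median was 3022 for the sum and 2601 for Lcn2. The acute phase sum was 152657 to 273556 in WT and 173552 to 730101 in Nod2-/- mice. Both sums were highest in Nod2-/- replicates 4 and 7, and Lcn2 is counted in both. At an unadjusted p under 0.05 by edgeR, 10 of 13 acute phase genes were higher, against 12.9% over all genes. Of the 13, 0 passed 5% FDR. The two-sided exact permutation p was 0.029 for Apcs, but 0.118 for Saa1, 0.153 for Saa2 and 0.258 for Orm2. The part of these genes in the members' values was not tested.

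Cyp2e1, which oxidizes ethanol, acetone and small carcinogens, was the most abundant member by far. Its level per kilobase of exon was 78948 ± 22672 normalized counts (SD, n = 6) in WT and 41200 ± 14597 (SD, n = 7) in Nod2-/- mice, and the next member over all mice, Cyp2d9, reached 10271 ± 2251 and 6901 ± 2052. In Nod2-/- mice Cyp2d26 was next, at 7306 ± 1488. The normalized counts of Cyp2e1 were 120395, 160792 and 235128 in WT mice (lowest, median and highest) and 36203, 103629 and 126412 in Nod2-/- mice. Every Nod2-/- mouse lay below the WT median, and 6 of 7 lay below the lowest WT mouse. Nod2-/- replicate 4 was lowest, and replicate 3 was the only one inside the WT range. The log2 fold change was -0.94 ± 0.27 (SE), with an adjusted p of 0.078 by edgeR and a two-sided exact permutation p of 0.0017, where 0.00058 is the smallest that 1716 splits of the mice allow. Cyp2e1 shared 4.56% of its windows with other genes.

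The largest subfamily, Cyp2c, oxidizes drugs, steroids and arachidonic acid, and 10 of its 11 tested members had lower fitted values in Nod2-/- mice, 5 of them at an unadjusted p under 0.05. Over all genes tested, 47.7% had lower fitted values, and 10.2% were lower at that p. The 5 were Cyp2c37, Cyp2c50, Cyp2c54, Cyp2c40 and Cyp2c68, close copies that share windows, so these calls are not independent. The sum over the 15 Cyp2c members was 47693 to 100953 normalized counts in WT and 24225 to 62551 in Nod2-/- mice, with means of 69405 ± 19060 (SD, n = 6) and 41484 ± 13618 (SD, n = 7). Cyp2c37, Cyp2c50 and Cyp2c54, neighbouring genes on chromosome 19 whose enzymes act on arachidonic acid, stood close together. Cyp2c37 had 583, 1079 and 2432 normalized counts in WT and 158, 596 and 800 in Nod2-/- mice (lowest, median and highest). All 7 Nod2-/- mice were below the WT median of Cyp2c37, and 3 were below every WT mouse. The highest WT values were those of replicates 1 and 2, and the groups overlapped only through WT replicates 5 and 6.

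Cyp2c54 was likewise highest in WT replicates 2 and 1. Its normalized counts were 1675, 2583 and 7013 in WT mice and 504, 1418 and 2328 in Nod2-/- mice, and 5 of 7 Nod2-/- mice were below every WT mouse. Cyp2c50 had 3413, 5306 and 10724 in WT and 1084, 3438 and 4931 in Nod2-/- mice. The log2 fold changes were -1.38 ± 0.41 for Cyp2c37, -1.32 ± 0.40 for Cyp2c54 and -0.99 ± 0.34 for Cyp2c50 (SE), with adjusted p of 0.081, 0.085 and 0.116 by edgeR. Across the 13 mice the log2 normalized counts of Cyp2c50 and Cyp2c54 had a Pearson r of 0.98 (0.99 within WT and 0.98 within Nod2-/-), and those of Cyp2c50 and Cyp2c37 one of 0.98. These correlations describe mice that share library depth and genotype, and Cyp2c37 shares 24.9% of its windows with Cyp2c50.

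Cyp2c40, Cyp2c69, Cyp2c68 and Cyp2c67 lie side by side on chromosome 19, on the minus strand. Cyp2c69 was the member whose values were most uneven among mice. It had 408 to 908 normalized counts in WT replicates 1, 2, 3 and 6, but 7.67 and 3.31 in WT replicates 4 and 5. The 7 Nod2-/- mice had 0.98 to 9.97, so WT replicates 4 and 5 lay inside the Nod2-/- range. The means were 465 ± 400 (SD, n = 6) in WT and 4.69 ± 3.05 (SD, n = 7) in Nod2-/- mice, a ratio of 99.3 that rests on 4 of the 6 WT mice. The two-sided exact permutation p was 0.0070. Cyp2c69 did not pass the low-count filter of edgeR, which asks for counts in more mice than those 4, and it passed 5% FDR without the filter (log2 fold change -6.61, adjusted p 0.0021), against 0.257% lower and 0.283% higher over all genes in that setting.

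Cyp2c40 was below Cyp2c69 in WT replicates 1, 2, 3 and 6 and above it in WT replicates 4 and 5 and in all 7 Nod2-/- mice. It had 55, 152 and 415 normalized counts in WT (lowest, median and highest) and 50, 76 and 97 in Nod2-/- mice. WT replicates 4 and 5 again had the lowest WT values, 55 and 98, and WT replicate 6 the highest. The log2 fold change was -1.34 ± 0.36 (SE) with an adjusted p of 0.067 by edgeR, the smallest of any member. Over the 13 mice its Pearson r was 0.89 with Cyp2c68 and 0.86 with Cyp2c69, but within the 7 Nod2-/- mice the r with Cyp2c69 was 0.03. Cyp2c69 shares 50.2% of its windows with Cyp2c40, and the part of shared reads in these values was not tested.

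Cyp2c68 had 697, 1610 and 2467 normalized counts in WT and 595, 1071 and 1521 in Nod2-/- mice (log2 fold change -0.69 ± 0.25). WT replicate 4 was the lowest WT mouse for Cyp2c68 as well, but WT replicate 5, at 1443, was not far below the median. Cyp2c67 had 4361, 6326 and 10161 in WT and 2826, 6152 and 7559 in Nod2-/- mice, with 1 Nod2-/- mouse (replicate 7) below every WT mouse and WT replicates 5 and 6 above every Nod2-/- mouse (adjusted p 0.592 by edgeR).

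**Figure D2:**
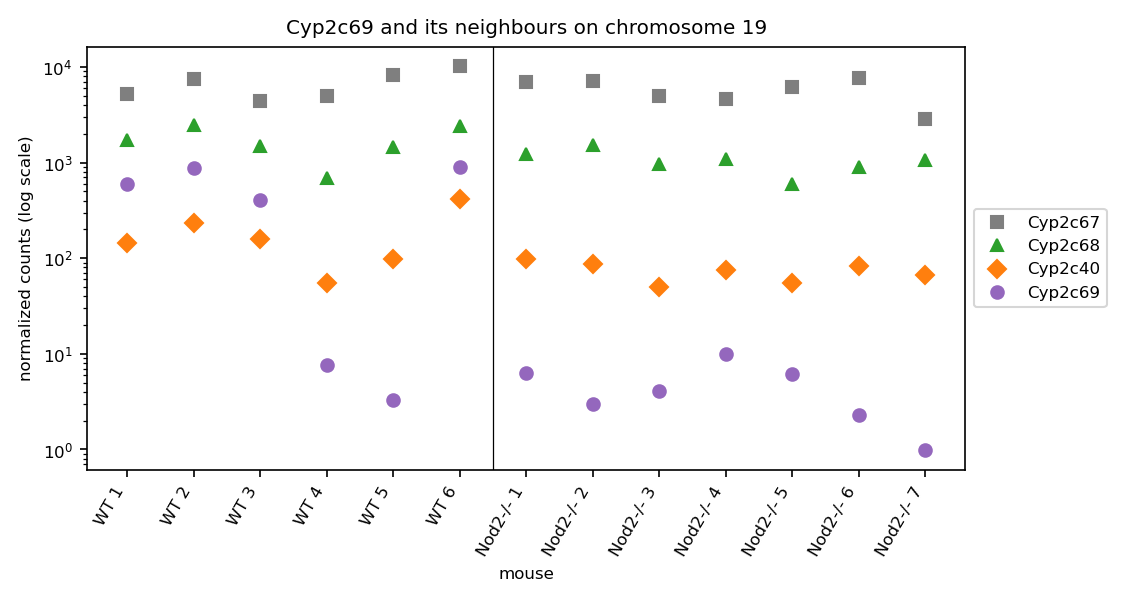
Normalized counts (y axis, log scale) of Cyp2c67, Cyp2c68, Cyp2c40 and Cyp2c69 in each of the 13 mice (x axis), WT to the left of the line and Nod2-/- to the right. Cyp2c69 is at 408 to 908 in 4 WT mice and at or below 9.97 in all others, while Cyp2c67 is lowest in Nod2-/- replicate 7, at 2826.

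The promoters of Cyp2c69 and Cyp2c40 were nearly the same where they could be compared. In the stretch from 185 to 36 bases before the start of Cyp2c69, and from 155 to 6 bases before that of Cyp2c40, 3 of 150 bases differed (RefSeq, GRCm38.p6). The stretches are shown because the levels of these genes differ by mouse and both hold the motif CAAAGTCCA, known for binding HNF4, which is printed in capitals.
Cyp2c69 (chr19:39886805-39886954, minus strand): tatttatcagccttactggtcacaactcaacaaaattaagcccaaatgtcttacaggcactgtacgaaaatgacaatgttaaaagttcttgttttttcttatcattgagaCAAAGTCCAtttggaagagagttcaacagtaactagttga
Cyp2c40 (chr19:39812820-39812969, minus strand): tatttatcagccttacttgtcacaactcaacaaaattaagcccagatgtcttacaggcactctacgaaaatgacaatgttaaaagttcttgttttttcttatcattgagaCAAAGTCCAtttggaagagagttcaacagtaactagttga
Over the 300-base windows from 250 bases before to 50 bases after the start, searched on both strands, CAAAGTCCA was found in 10 of the 50 members with a promoter (20%) and in 0.555% of 27025 genes. The motif ATCAAT, part of the site of Onecut factors, was found in 11 of 50 members (22%) and in 8.63% of all genes. The nuclear receptor motif AGGTCA was found in 36% and 18.1%, and TATAAA in 52% and 15.7%. Close copies share promoter sequence, so these members are not independent, and a match is a run of letters and not a bound site.

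Cyp2c70, which makes the muricholic acids of mouse bile, had the highest level per kilobase of the subfamily over all 13 mice, at 7344 normalized counts against 7294 for Cyp2c29. In WT mice Cyp2c29 was the higher of the pair (10032 ± 4109 against 8406 ± 2708 per kilobase, SD, n = 6), and in Nod2-/- mice it was the lower (4947 ± 3750 against 6434 ± 871, SD, n = 7). The normalized counts of Cyp2c70 were 10306, 16924 and 25156 in WT and 10853, 12331 and 16277 in Nod2-/- mice, and no Nod2-/- mouse was below the lowest WT mouse (log2 fold change -0.39 ± 0.18, adjusted p 0.222 by edgeR). Cyp2c29, a CAR-inducible member, had normalized counts of 16559, 26094 and 49619 in WT and 2577, 18521 and 32897 in Nod2-/- mice, and Nod2-/- replicates 4, 6 and 7 were below every WT mouse. Its log2 fold change was -1.02 ± 0.51, with an adjusted p of 0.246. Cyp2c39 alone of the tested Cyp2c members had a higher fitted value in Nod2-/- mice (0.15 ± 0.45), and its highest value, 2346, was in Nod2-/- replicate 7.

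Cyp2a members differed among themselves in direction. Cyp2a5, the coumarin hydroxylase, had 4876, 14674 and 24840 normalized counts in WT and 1106, 8274 and 11804 in Nod2-/- mice. All 7 Nod2-/- mice were below the WT median of Cyp2a5, and Nod2-/- replicates 6 and 4 were lowest. The log2 fold change was -1.08 ± 0.46, with an adjusted p of 0.178 by edgeR and an exact permutation p of 0.028. Cyp2a22 had 312, 563 and 1228 in WT and 182, 290 and 472 in Nod2-/- mice, with 4 of 7 Nod2-/- mice below every WT mouse (log2 fold change -1.17 ± 0.34, adjusted p 0.080). Cyp2a12, a hydroxylase of bile acids and steroids that shares 24.0% of its windows with Cyp2a22, was more even, at 9928 to 14266 in WT and 5808 to 11581 in Nod2-/- mice.

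Cyp2a4, a testosterone hydroxylase known as a female-biased gene in mouse liver, went its own way. Its normalized counts were 216, 531 and 12622 in WT mice and 196, 3737 and 13647 in Nod2-/- mice. The 4 highest mice were Nod2-/- replicate 4 (13647), WT replicate 3 (12622), Nod2-/- replicate 2 (9554) and Nod2-/- replicate 1 (9203). These 4 mice also had the 4 highest sums of liver tumor and progenitor genes, at 16925, 11470, 12572 and 13989, against 839 to 7236 in the other mice, and the part of tumor tissue in the Cyp2a4 values was not tested. The fitted difference between the genotypes was 1.12 ± 1.0 on the log2 scale (adjusted p 0.518 by edgeR), and without WT replicate 3 it was 3.02.

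Cyp2a5, its close copy, had 3686 to 15212 normalized counts in those 4 mice and was highest in WT replicates 2 and 1. Their promoters differ at 3 of 150 bases in the stretch from 155 to 6 bases before the start of Cyp2a4 (156 to 7 for Cyp2a5). They are shown because the levels differ by mouse while the sequences hardly do, with the differing bases in capitals (RefSeq, GRCm38.p6).
Cyp2a4 (chr7:26307037-26307186, plus strand): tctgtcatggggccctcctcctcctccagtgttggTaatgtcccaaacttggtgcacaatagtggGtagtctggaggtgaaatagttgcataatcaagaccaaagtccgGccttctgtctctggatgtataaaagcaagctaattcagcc
Cyp2a5 (chr7:26835183-26835332, plus strand): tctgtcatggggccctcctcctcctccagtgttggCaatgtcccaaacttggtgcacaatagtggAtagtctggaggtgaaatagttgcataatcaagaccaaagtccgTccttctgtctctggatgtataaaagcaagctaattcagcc

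**Figure D3:**
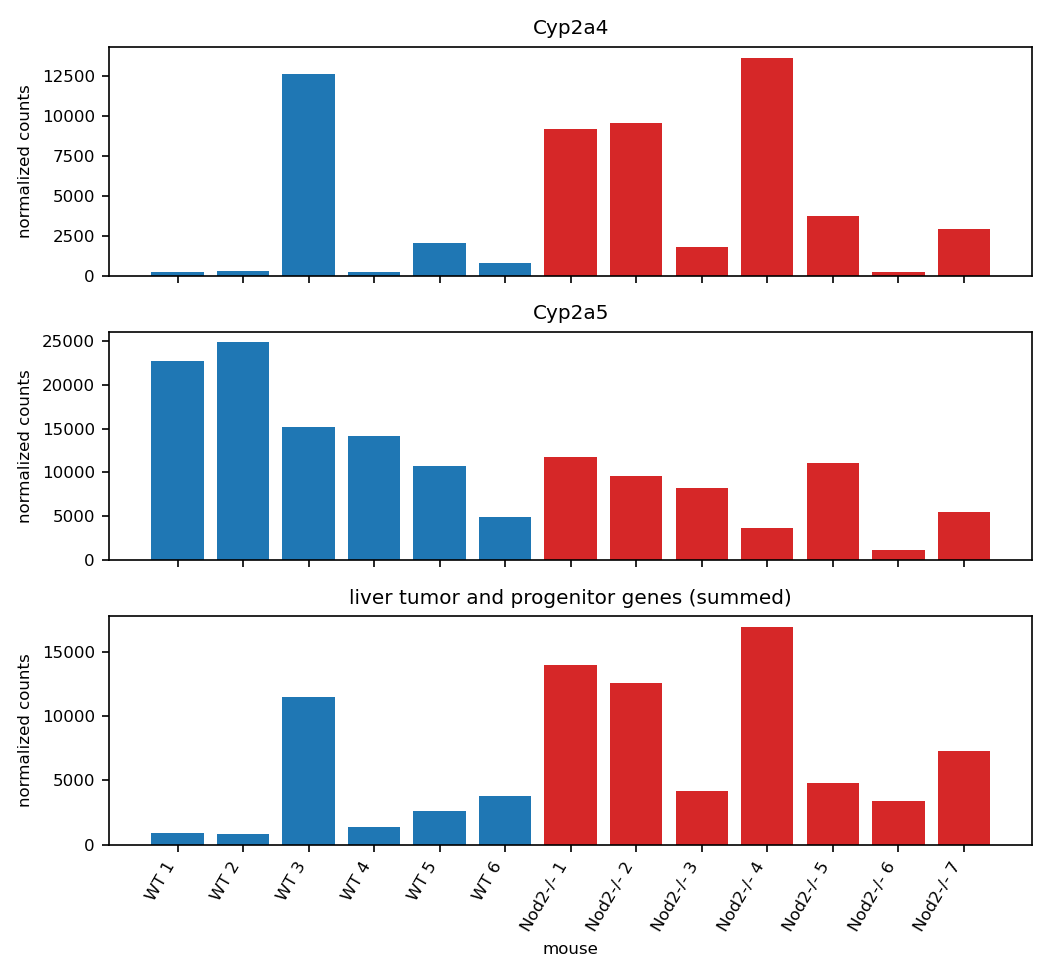
Normalized counts (y axes, from 0) of Cyp2a4, Cyp2a5 and the summed liver tumor and progenitor genes in each mouse (x axis), WT in blue and Nod2-/- in red. Cyp2a4 is at 9203 or more in WT replicate 3 and Nod2-/- replicates 1, 2 and 4, the 4 mice with the highest tumor gene sums, and Cyp2a5 is highest in WT replicates 2 and 1.

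Among the Cyp2b members, Cyp2b10, the standard target of CAR, had the largest negative fold change of any tested member. It had 116, 234 and 590 normalized counts in WT and 6.98, 58 and 331 in Nod2-/- mice. In 6 of 7 Nod2-/- mice Cyp2b10 was below every WT mouse, and the exception was replicate 5, at 331. The log2 fold change was -1.78 ± 0.69, with an adjusted p of 0.148 by edgeR and an exact permutation p of 0.019. Without Nod2-/- replicate 5 it was -2.76 with an adjusted p of 0.042 (0.042 to 0.316 over all alternatives), past 5% FDR, against 0.633% lower and 0.64% higher over all genes in that setting. Cyp2b9, a female-biased member, had the highest level per kilobase of the subfamily. Its normalized counts were 133, 618 and 1133 in WT and 12.5, 828.7 and 1234 in Nod2-/- mice, with a log2 fold change of 0.23 ± 0.58. Cyp2b13, another female-biased member, had 3.28 to 249 in WT and 1.14 to 148 in Nod2-/- mice. Cyp2b9, Cyp2b10 and Cyp2b13 were all low in Nod2-/- replicate 6, at 12.5, 13.7 and 1.14.

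All 7 tested Cyp2d members had lower fitted values in Nod2-/- mice, at log2 fold changes of -0.64 to -0.01. Over all genes tested, 47.7% had lower fitted values. Cyp2d9, a male-biased testosterone hydroxylase, had 19809, 27012 and 33951 normalized counts in WT and 9516, 20557 and 25188 in Nod2-/- mice, and all 7 Nod2-/- mice were below the WT median. Its log2 fold change was -0.57 ± 0.21 (adjusted p 0.135 by edgeR). Cyp2d10 had 8720 to 12537 in WT and 6208 to 11791 in Nod2-/- mice (-0.39 ± 0.16), with 5 of 7 Nod2-/- mice below every WT mouse. The summed Cyp2d counts were 47035 to 71776 in WT and 33158 to 60468 in Nod2-/- mice.

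Cyp2f2, which activates naphthalene and is also a gene of the club cells of the lung, had 11749, 13308 and 19307 normalized counts in WT and 4836, 12558 and 18840 in Nod2-/- mice (log2 fold change -0.38 ± 0.28, adjusted p 0.431 by edgeR). It shared no window with another gene. WT replicate 4 was the highest for Cyp2f2 and also had the highest lung epithelium sum, 3986 against at most 2292 in any other mouse. Nod2-/- replicate 5 and WT replicate 6 were next for Cyp2f2, at 18840 and 18726, with lung sums of 1320 and 1241. WT replicate 2, next in lung sum at 2292, had 13031 for Cyp2f2. Scgb1a1, the defining club cell gene, had 5.13 to 204 in WT and 0.98 to 28.1 in Nod2-/- mice. The lung genes that were lower in Nod2-/- mice at an unadjusted p under 0.05 were Sftpa1, Sftpb, Sftpc, Sftpd and Slc34a2. Without WT replicate 4 the log2 fold change of Cyp2f2 was -0.29. The part of lung RNA in the Cyp2f2 values was not tested.

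Of the 8 Cyp2j members, which make epoxides of arachidonic acid, 3 were tested. Cyp2j5 led the subfamily with 8496, 11634 and 15126 normalized counts in WT and 4473, 8277 and 9739 in Nod2-/- mice. All 7 Nod2-/- mice were below the WT median of Cyp2j5, and 4 were below every WT mouse (log2 fold change -0.59 ± 0.19, adjusted p 0.096 by edgeR). Only 0.651% of its windows were shared. Cyp2j6 had 1483 to 1931 in WT and 1336 to 1724 in Nod2-/- mice (-0.19 ± 0.08), and Cyp2j9 had 35.4 to 105 in WT and 67.7 to 107 in Nod2-/- mice (0.51 ± 0.24).

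A few members had higher values in Nod2-/- mice. Cyp2r1, the hydroxylase that makes the circulating form of vitamin D, had 44.2, 59.6 and 69.1 normalized counts in WT and 51.4, 106 and 142 in Nod2-/- mice. In 5 of 7 Nod2-/- mice Cyp2r1 was above every WT mouse, and replicates 3 and 5 were inside the WT range (log2 fold change 0.74 ± 0.24, adjusted p 0.099 by edgeR). It shared no window with another gene. Cyp3a57 was near its floor in WT mice, at 0, 2.25 and 9.94, and had 2.28, 17.6 and 21.9 in Nod2-/- mice, with 5 of 7 above every WT mouse. Its fitted log2 fold change of 2.04 ± 0.59 (adjusted p 0.078) rests on at most 22 counts in a mouse. WT replicate 3 had the highest WT value of Cyp3a57, and without that mouse the fold change was 2.75 with an adjusted p of 0.022 (0.017 to 0.165 over all alternatives).

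**Figure D4:**
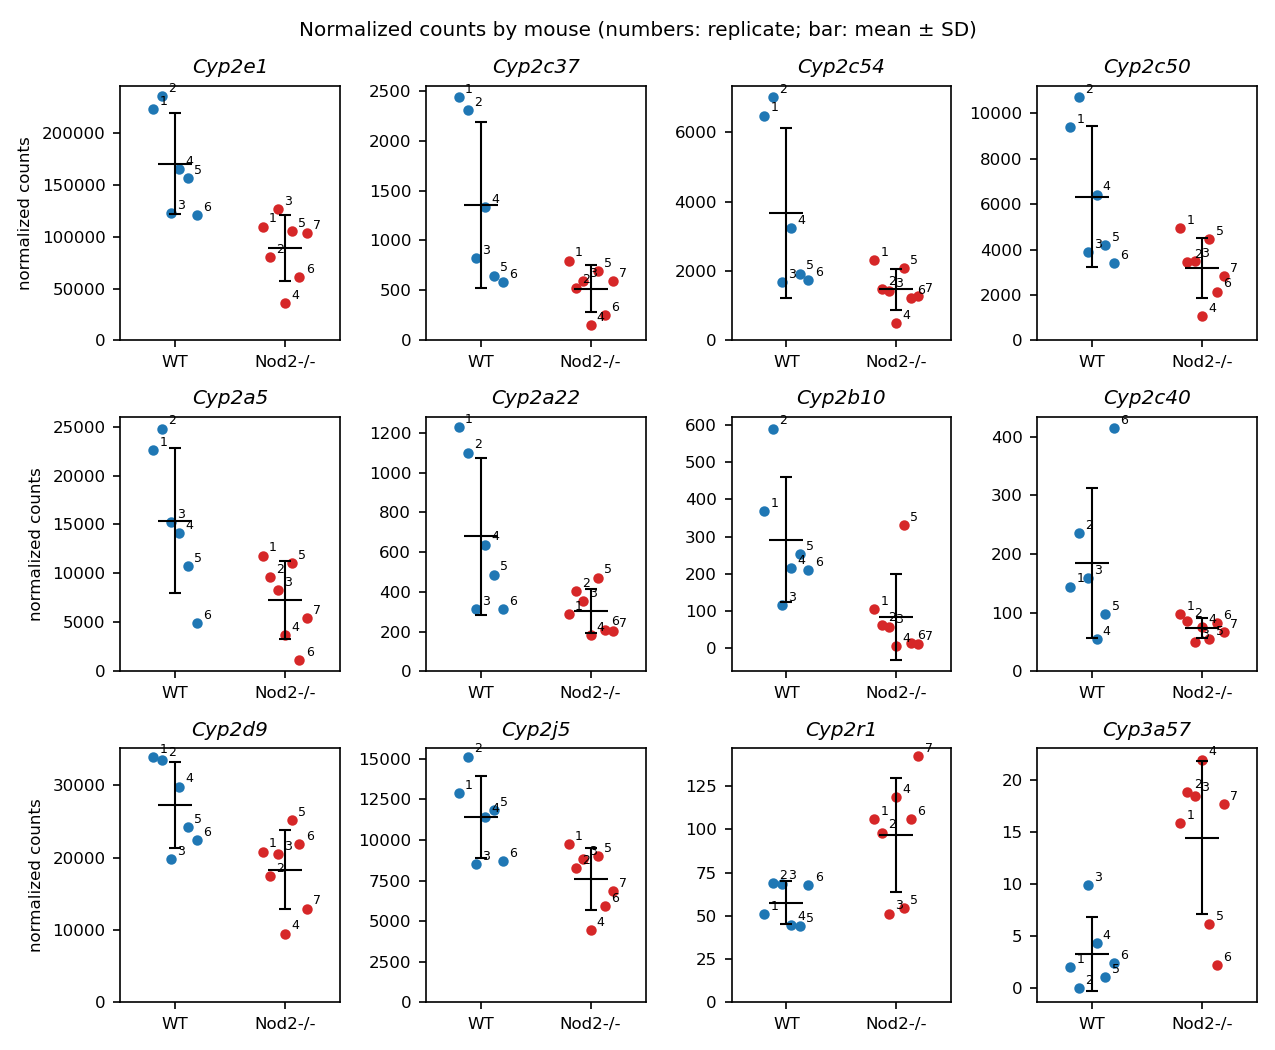
Normalized counts (y axes, from 0 or just below) of 12 members in WT (blue) and Nod2-/- (red) mice, with replicate numbers beside the points and bars of mean ± SD. Nod2-/- replicate 4 is lowest in its group for Cyp2e1, Cyp2c37, Cyp2c54, Cyp2c50, Cyp2a22, Cyp2b10, Cyp2d9 and Cyp2j5, and highest for Cyp3a57.

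The remaining Cyp3a members included the main hepatic drug oxidase, Cyp3a11, a target of PXR. It had 11231, 16618 and 41884 normalized counts in WT and 1832, 13965 and 31610 in Nod2-/- mice, lowest in replicate 4 and highest in replicate 6 (log2 fold change -0.44 ± 0.51, adjusted p 0.622 by edgeR). Cyp3a25, with the highest level per kilobase of the subfamily, had 9507, 13312 and 19734 in WT and 5404, 11892 and 14472 in Nod2-/- mice (-0.36 ± 0.23). Cyp3a13 had 785 to 1635 in WT and 899 to 2226 in Nod2-/- mice (0.36 ± 0.22). Cyp3a44, a female-biased member, had 15.6, 35.2 and 49.2 in WT and 15.9, 44 and 278 in Nod2-/- mice. The 278 was that of Nod2-/- replicate 7, and the fold change of 1.30 ± 0.57 fell to 0.50 at its lowest among the fits that left out 1 mouse.

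Cyp2u1, a fatty acid hydroxylase, had 468, 674 and 904 normalized counts in WT and 189, 818 and 1181 in Nod2-/- mice (0.04 ± 0.33), and Cyp2g1, known from olfactory tissue, had 13.9, 22 and 77.8 and 3.41, 25.7 and 51.8. Of the 19 members not tested, Cyp2b19, Cyp2j7, Cyp2j12, Cyp2t4 and Cyp2w1 had 0 counts in every mouse, which allows up to 3 counts a library. Cyp2ab1, Cyp2b23, Cyp2c66, Cyp2j11, Cyp2j13 and Cyp3a41b had at most 3. Cyp2ab1, the only member of its subfamily, had 0 to 1.10 normalized counts in WT and 0 to 1.76 in Nod2-/- mice. Cyp2s1 had 4.1 to 30.7 in WT and 5.69 to 10.97 in Nod2-/- mice. Apart from Cyp2c69, the other untested members (Cyp2c55, Cyp2c65, Cyp2d11, Cyp2j8, Cyp3a16 and Cyp3a41a) had at most 14 counts in a mouse.

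Members grouped by known place and regulation gave these counts. The lists were chosen with results of these data known, so their direction is not independent evidence, and the counts at an unadjusted p under 0.05 stand against 10.2% lower and 12.9% higher over all genes. All 7 pericentral members (Cyp2e1, Cyp2c29, Cyp2c37, Cyp2c50, Cyp2c54, Cyp2a5 and Cyp3a11) had lower fitted values in Nod2-/- mice, 5 at an unadjusted p under 0.05, with a median log2 fold change of -1.02. Among 12 genes outside the families that were listed as pericentral, 2 were lower and 2 higher at that p, with a median of 0.19. The 2 lower were Cyp1a2 (-0.95 ± 0.41) and Gulo (-0.29 ± 0.14), and the 2 higher were Axin2 (0.66 ± 0.26) and Aldh1b1. Aldh1b1 was higher past 5% FDR (0.80 ± 0.17, adjusted p 0.039 by edgeR), and Glul, the glutamine synthetase of the cells next to the central vein, stood at 0.07 ± 0.23. Bulk liver does not show the zone of a gene, so the place of Aldh1b1 on this list was not checked. Among 12 genes listed as periportal, 4 were higher and 2 lower at an unadjusted p under 0.05, with a median of 0.007. Of these, 1 (Sox9) was higher past 5% FDR. Of the 11 tested members known as CAR or PXR inducible, 8 were lower, 5 of them at an unadjusted p under 0.05 (median -0.99). Cyp2c29, Cyp2c37, Cyp2c50, Cyp2c54, Cyp2a5 and Cyp3a11 are on this list and on the pericentral list, so their counts are not separate. Of 14 tested other targets of these receptors 13 were lower, 6 at that p (median -0.62). Among them were Ugt1a1 (-0.91 ± 0.22, adjusted p 0.058 by edgeR) and Abcc3 (-0.94 ± 0.25, adjusted p 0.066). Por and Alas1 are also among these targets and are counted again below with the electron donors and heme genes.

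The female-biased members did not move as a block. Of 11 such members, 7 were tested, and 4 of these had higher and 3 lower fitted values. Cyp2c69 is on the list but was left out by the low-count filter. Its mean was 465 normalized counts in WT and 4.69 in Nod2-/- mice (two-sided exact permutation p 0.0070). Cyp3a44, at 278 in Nod2-/- replicate 7, had an exact permutation p of 0.19. Of the 7 tested, 1 was higher (Cyp3a44) and 2 lower (Cyp2b10 and Cyp2c40) at an unadjusted p under 0.05. Over all genes, 12.9% were higher and 10.2% lower at that p. Of 13 tested female-biased liver genes outside the families, 2 were higher and 4 lower at that p, and Cyp17a1, a steroid hydroxylase, was 1 of them and was higher past 5% FDR (2.71 ± 0.51, adjusted p 0.026 by edgeR). Of 20 male-biased genes outside the families, 1 was higher (Serpina12, past 5% FDR) and 3 were lower at that p. The median was -0.35 over the female-biased and -0.52 over the male-biased genes.

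Several genes on which these enzymes depend had lower values in Nod2-/- mice. Of 20 tested nuclear receptors and hepatic regulators, 14 had lower and 6 higher fitted values. At an unadjusted p under 0.05, 7 were lower and 2 higher, against 10.2% lower and 12.9% higher over all genes. The 2 higher were Nfe2l2 (0.32 ± 0.13) and Foxa3 (0.29 ± 0.13). Onecut1, a hepatocyte transcription factor also called HNF6, fell past 5% FDR, from 270, 448 and 732 normalized counts in WT to 103, 124 and 393 in Nod2-/- mice (log2 fold change -1.44 ± 0.32, adjusted p 0.042 by edgeR). It was the only one of 48 tested regulators, partners and heme genes to pass, and it did not pass in 10 of the 13 fits that left out 1 mouse. Nr1i2, the receptor PXR, had 1427, 2017 and 2719 in WT and 1020, 1297 and 1883 in Nod2-/- mice (-0.61 ± 0.17, adjusted p 0.071). Hnf4a, a nuclear receptor that sustains hepatocyte genes, had 10142, 11033 and 13030 in WT and 7462, 8909 and 10346 in Nod2-/- mice, of which the highest lay just inside the WT range (-0.34 ± 0.10, adjusted p 0.081). Nr1i3, the receptor CAR, had 3554 to 11964 in WT and 1789 to 7440 in Nod2-/- mice (-0.52 ± 0.33, adjusted p 0.353). DESeq2 placed Nr1i2 and Hnf4a lower past 5% FDR, and likewise Por, Pgrmc1, Cpox and Fech, described next.

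Por, the reductase that passes electrons to every member, had 5167, 8733 and 10713 normalized counts in WT and 2427, 4871 and 6938 in Nod2-/- mice (log2 fold change -0.84 ± 0.22, adjusted p 0.066 by edgeR). Cyb5a, which can supply the second electron, and Pgrmc1, a heme-binding partner, stood at -0.50 ± 0.20 and -0.43 ± 0.16. Alas1, the rate-limiting enzyme of heme synthesis, stood at -0.60 ± 0.26, and Cpox and Fech, later enzymes of that pathway, at -0.46 ± 0.12 and -0.35 ± 0.11. In all, 3 of 6 electron donors and partners and 4 of 12 heme genes were lower, and 0 of either were higher, at an unadjusted p under 0.05, against 10.2% lower and 12.9% higher over all genes. Of the growth hormone and sex hormone regulators, 3 of 10 were lower at that p, against the same 10.2%, among them Ghr, the growth hormone receptor (-0.51 ± 0.22), and Cish (-1.34 ± 0.51), and 1, Bcl6, was higher (0.97 ± 0.43), against 12.9% over all genes.

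**Figure D5:**
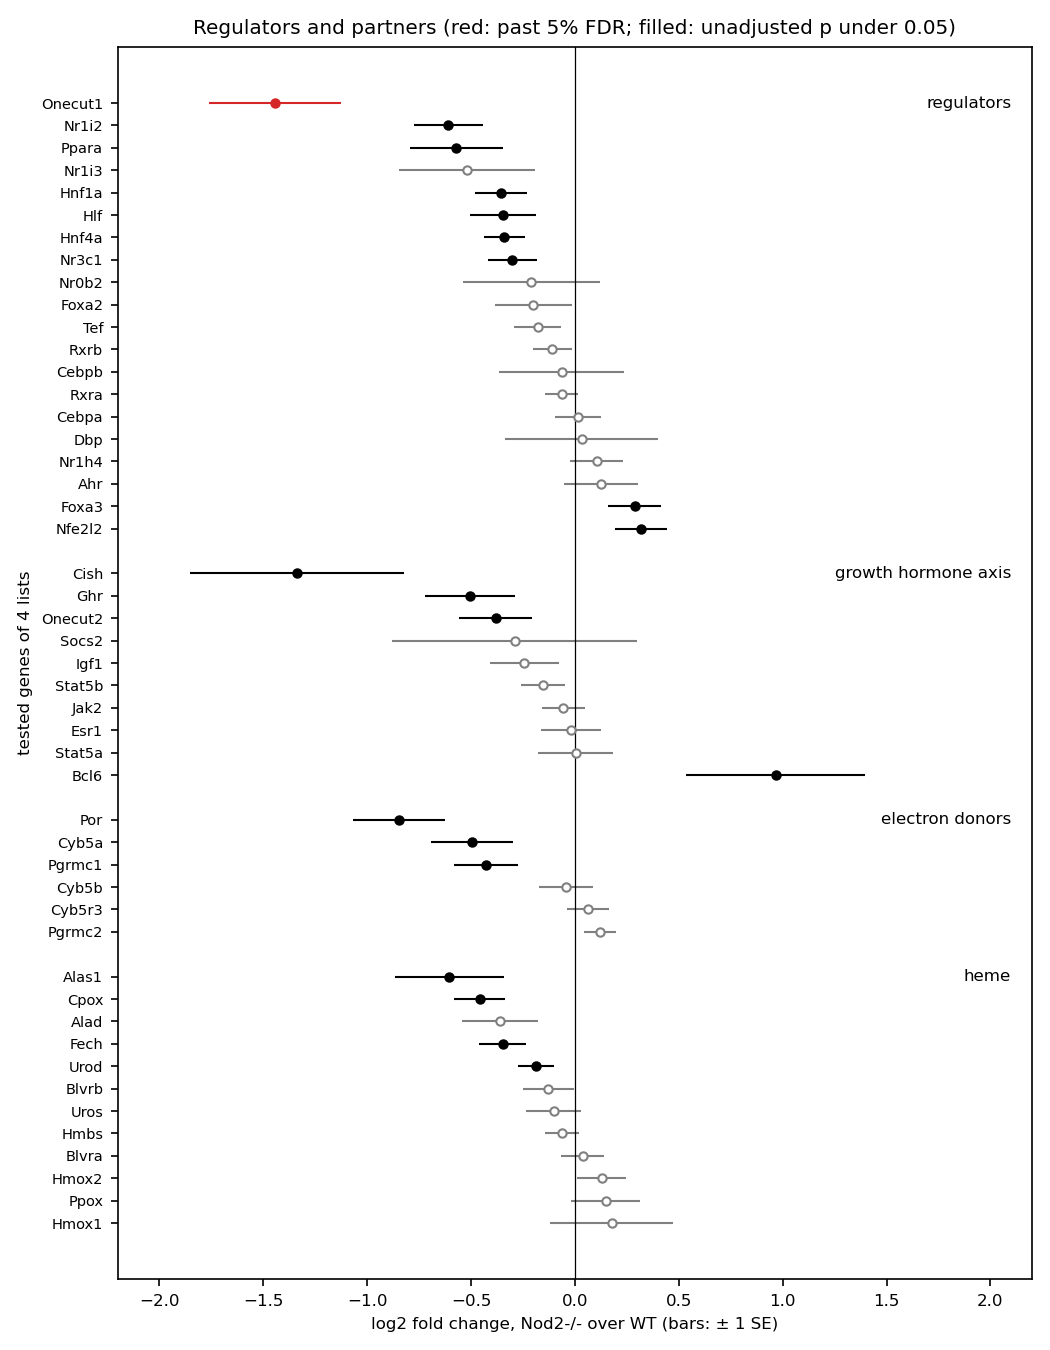
Log2 fold change (Nod2-/- over WT, x axis) of the tested regulators, growth hormone axis genes, electron donors and heme genes (y axis), with bars of 1 SE, red for past 5% FDR and filled for an unadjusted p under 0.05 by edgeR. Onecut1 is the only red point, at -1.44, and Por, Cyb5a, Pgrmc1, Alas1, Cpox, Fech and Urod are filled points below 0. Foxa3, Nfe2l2 and Bcl6 are filled points above 0.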

How the data were processed

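Liver RNA of 6 WT and 7 Nod2-/- mice was sequenced as paired 43-base reads from TruSeq Stranded mRNA libraries, 1 per mouse. Trimming with Trimmomatic 0.33 and mapping with TopHat2 2.1.1 to GRCm38 (GENCODE M16) were done by the authors. They deposited raw counts, whole numbers for each gene in each mouse. The counting program and its use of strand are not given in the sources used here. The table holds 1 empty row, with no name and no counts. Symbols and exon lengths came from GENCODE M21, matched for 53274 of 53465 genes.

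Genotype was tested with edgeR 4.0.16 (R 4.3.3; TMM, filterByExpr, quasi-likelihood F test, two-sided, Benjamini-Hochberg over 13545 genes). SE is the log2 fold change divided by the square root of F. Normalized counts were obtained by dividing counts by effective library size and multiplying by the mean of those sizes. Single members also had a two-sided exact permutation test over the 1716 splits of 6 against 7, unadjusted for the number of members. DESeq2 1.42.0 and further settings were alternatives, and the fits were tested on simulated data. Correlations used log2(normalized count + 2). P-values measure the spread between mice, some of which may share cages or breeders.

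Values by group are given for members past 5% FDR, without overlap, with an absolute log2 fold change of at least 1 and an unadjusted p under 0.05, or with the highest level per length of their subfamily, and for Cyp2c69 and Cyp3a57; further members were named after their values were seen. A gene of the hormone regulator list is not reported here. The members and lists were chosen with earlier results of these data known. Floors cover counting error only. Same-numbered WT and Nod2-/- mice did not deviate together (r of -0.30 to 0.30).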

Additional observations from a re-analysis of the deposited data

Results flagged for a closer look

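In 21 members tested by group (42 groups of mice), 3 values lay far from the rest of their group by Dixon's test, and chance alone flags about 1 group in 20. Cyp2b10 had 331 normalized counts in Nod2-/- replicate 5, against 6.98 to 105 in the other Nod2-/- mice. Cyp3a44 had 278 in Nod2-/- replicate 7, against 15.9 to 77.8. Cyp2a4 had 12622 in WT replicate 3, against 216 to 2059 in the other WT mice.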

How the results depend on the processing

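Members called past 5% FDR were 0 in each direction by edgeR and under RLE normalization, the filter of at least 10 counts in every mouse, the robust fit, library sizes without the 20 most abundant genes and the replicate block. DESeq2 called 8 lower and 2 higher, and edgeR without the low-count filter called 1 lower (Cyp2c69). Leaving out 1 mouse at a time gave 0 to 6 lower and 0 to 1 higher, the 6 and 1 without WT replicate 3, and 1 lower (Cyp2b10) without Nod2-/- replicate 5. Over all genes, 69 were lower and 88 higher, against 579 and 630 by DESeq2, 18 and 17 with the replicate block, 20 to 459 and 20 to 697 when 1 mouse was left out, and 173 higher with WT replicate 3 and Nod2-/- replicates 4 and 7 left out together. Regulators and partners lower past 5% FDR were 1, against 7 by DESeq2, 0 with the replicate block and 0 to 4 when 1 mouse was left out. The cause of these shifts was not tested. The numbers 1 to 6 name mice of both groups but did not pair them, no WT mouse correlating best with its own number. Of the fold changes of 23 named members, only that of Cyp2u1, 0.04, changed sign, in 5 of the fits that left out 1 mouse (-0.01, -0.05, -0.14, -0.06 and -0.02), over a range of -0.14 to 0.21. The log2 ratio of each subfamily's summed level moved by less than the spread between mice under RLE scaling, the median over mice and each mouse left out. Its sign was not stable in every subfamily. With 1 mouse left out, the ratio ranged from -0.37 to 0.02 for Cyp2b and from -0.12 to 0.21 for Cyp2u. The ratio of means for Cyp2g was -0.52, while its median was 22 in WT and 25.7 in Nod2-/- mice. Depth limited the 11 members with at most 3 counts in every mouse.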

Other observations

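Of the 15 pseudogenes left out, Cyp2d37-ps had the highest level, at 521 to 1282 normalized counts in WT and 496 to 1262 in Nod2-/- mice. Cyp2a21-ps, which shares 12.97% of the windows of Cyp2a4 and 18.4% of those of Cyp2a5, had 6.15, 12.6 and 151 in WT and 1.14, 68.6 and 199 in Nod2-/- mice (lowest, median and highest).

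Between members, the pattern over the 13 mice most like that of Cyp2b10 was that of Cyp2d10 (Pearson r 0.95, 0.87 within WT and 0.95 within Nod2-/-), and the one most like Cyp2a5 was Cyp2c37 (0.85). Cyp2a22 was most like Cyp2c54 (0.92), Cyp3a57 most like Cyp2a4 (0.76) and Cyp3a44 most like Cyp2r1 (0.56).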
